A study of Homo sapiens with 9 samples.

Results

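The 10 Kruppel-like factor genes *KLF2*, *KLF3*, *KLF4*, *KLF5*, *KLF6*, *KLF7*, *KLF10*, *KLF11*, *KLF13* and *KLF16* were taken by symbol from the gene count table, which holds 59452 genes. The members were selected on their measured counts in these 3 conditions, whose levels and differences were already known, so their values are given as a description, without p-values. The genes were measured by RNA-seq in MDA-MB-453, an established human breast cancer line labelled as triple-negative (TNBC). The 9 libraries came from 3 conditions with 3 libraries each. Cells were kept attached with vehicle (DMSO), held in forced suspension on poly-HEMA–coated plastic with vehicle, or held in suspension with AT-0174, a small-molecule inhibitor of both TDO2 and IDO1, at 10 µmol/L. The genotype was wild type and RNA was taken after 48 hours in each condition. None of the 9 libraries came from attached cells with AT-0174, so AT-0174 was compared with vehicle in suspension only. The study's methods call the samples biological triplicates of a single line.

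Kruppel-like factors are transcription factors that bind GC boxes and CACCC boxes in DNA through zinc fingers at their C-terminus. Some members mostly activate, some mostly repress through corepressors such as CtBP and SIN3, and the same site can be shared by several members and by the related SP factors. In epithelia the family is known for balancing proliferation against differentiation, and several members are transcribed quickly after serum, stress or growth factor stimulation. *KLF2* is best known from endothelial and T cells, where it accompanies quiescence and where the kinase ERK5 and the MEF2 factors drive its promoter.

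The stretch upstream of a start site is shown for *KLF2*, *KLF4* and *KLF16*, 3 of the members that were higher in suspension. *KLF11*, also higher, is not shown because its windows overlap exons of the gene. All of the windows shown hold GC boxes, and 1 of them holds a MEF2 site, which was 1 of several motifs searched. GC boxes do not set these members apart, since *KLF5*, *KLF6*, *KLF7*, *KLF11* and *KLF13* also had a window with GC boxes. RefSeq (GRCh38.p14) gave upstream windows for 8 of the 10 members, and *KLF3* and *KLF10* had no entry that was used. Each sequence below is the 250 bases before the RefSeq start site, read 5′ to 3′ on the strand of the gene. Capitals mark GC boxes (GGGCGG on either strand) and, in *KLF2*, a MEF2 site.

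KLF2: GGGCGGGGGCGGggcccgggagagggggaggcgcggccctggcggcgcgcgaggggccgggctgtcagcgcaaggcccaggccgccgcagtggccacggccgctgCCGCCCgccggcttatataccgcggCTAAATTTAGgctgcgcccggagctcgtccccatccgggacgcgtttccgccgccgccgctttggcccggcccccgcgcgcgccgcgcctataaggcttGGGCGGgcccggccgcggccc

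KLF4: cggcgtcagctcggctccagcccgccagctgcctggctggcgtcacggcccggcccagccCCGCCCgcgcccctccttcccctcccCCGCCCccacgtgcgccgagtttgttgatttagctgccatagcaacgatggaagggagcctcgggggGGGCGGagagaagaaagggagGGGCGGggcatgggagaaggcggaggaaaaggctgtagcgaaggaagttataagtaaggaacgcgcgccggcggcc

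KLF16: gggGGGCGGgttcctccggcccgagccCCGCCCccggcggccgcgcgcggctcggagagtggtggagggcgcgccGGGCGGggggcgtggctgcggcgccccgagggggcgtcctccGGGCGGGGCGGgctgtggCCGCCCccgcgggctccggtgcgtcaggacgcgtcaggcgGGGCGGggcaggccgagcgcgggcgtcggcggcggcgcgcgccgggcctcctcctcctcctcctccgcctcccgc

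The *KLF2* window lies at chr19:16324576-16324825 on the plus strand, directly before the gene (ENSG00000127528, chr19:16324826-16328685), and 80% of its bases are G or C. It holds 4 GC boxes and 1 MEF2 site, CTAAATTTAG, at −120 to −111 from the start site. Among all 34941 RefSeq windows of this length, 0.518% held a MEF2 site and 42.5% held a GC box, so the MEF2 site sets the *KLF2* window apart from the other windows printed here, which hold none. The *KLF4* window, at chr9:107489770-107490019 on the minus strand, is 69.2% G or C and holds 4 GC boxes, an E-box (CACGTG, found in 6.32% of windows) and 2 matches to the core of the cAMP response element (TGACG on either strand, found in 21.2% of windows). It lies inside the annotated span of *KLF4* (ENSG00000136826, chr9:107484852-107490482) and overlaps no annotated exon. The *KLF16* window, at chr19:1863580-1863829 on the minus strand, directly precedes its gene (ENSG00000129911, chr19:1852399-1863579) and is 86.4% G or C, with 7 GC boxes, some of which overlap, and 2 matches to the same core. The median of all windows was 58% G or C. A match to a motif describes the sequence only, and binding was not measured.

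**Figure D1:**
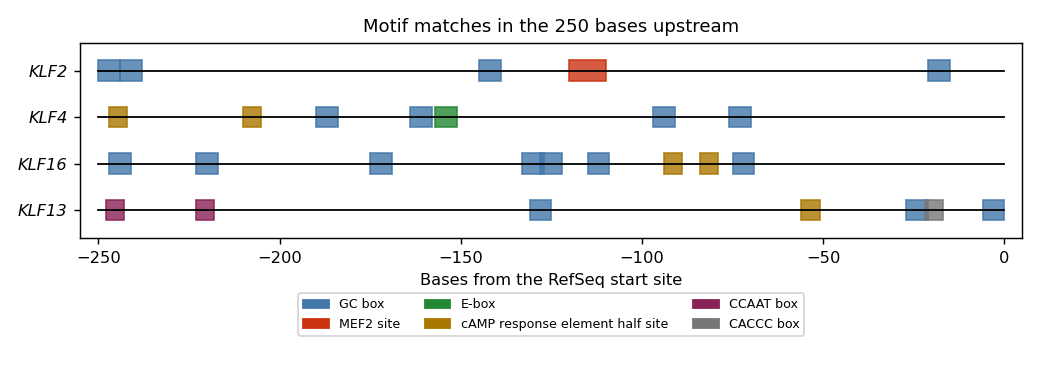
Positions of motif matches in the 250 bases upstream of the RefSeq start sites of *KLF2*, *KLF4*, *KLF16* and *KLF13*; the x axis is the distance from the start site in bases and each box is 1 match on either strand. GC boxes occur in all 4 windows, 3 of them in *KLF13*, and the MEF2 site occurs in *KLF2* at −120 to −111.

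*KLF2* varied most among the members, with a coefficient of variation of 28.2% over the 9 libraries against 5.98% to 9.11% for the other tested members. Levels are given as CPM (counts scaled for the depth of each library) after TMM scaling in edgeR, and differences as log2 fold changes with their standard error (SE) from a single edgeR fit of all 9 libraries. *KLF2* measured 44.2, 52.6 and 43.98 CPM in the attached libraries, 71.7, 75.8 and 69.9 CPM in suspension with vehicle, and 92.7, 93.0 and 91.3 CPM in suspension with AT-0174. The groups did not overlap: every suspended library lay above every attached library, and every AT-0174 library lay above every suspended vehicle library. The log2 difference was 0.63 (SE 0.060) for suspension and 0.35 (SE 0.058) for AT-0174 within suspension, which correspond to mean CPM ratios of 1.54 and 1.27. Suspended cells with AT-0174 held 1.97 times the mean CPM of attached cells, a contrast in which suspension and compound differ together. Both comparisons use the same suspended vehicle libraries, so their values are not independent.

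**Figure D2:**
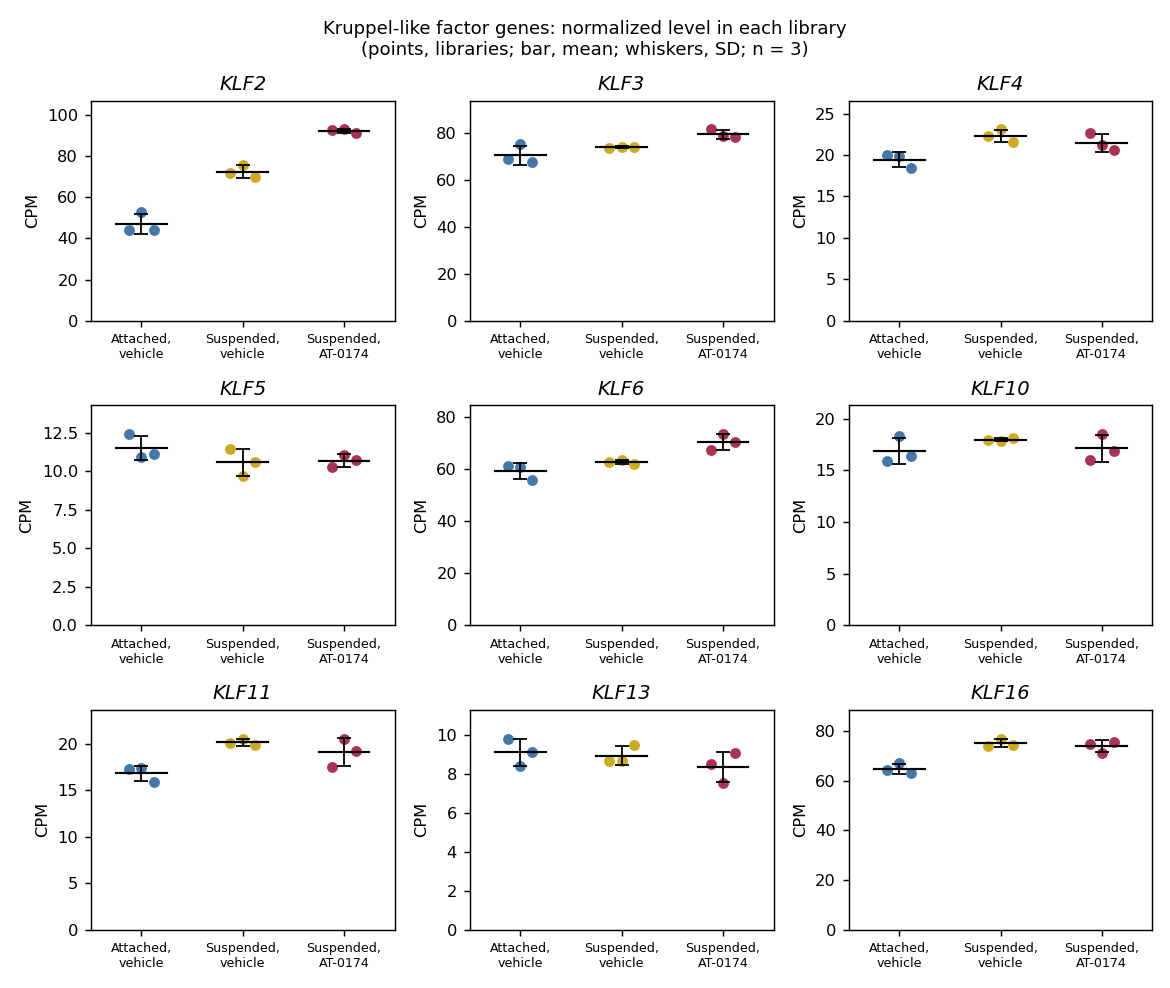
CPM of 9 Kruppel-like factor genes in each library, with the mean (bar) and SD (whiskers) of 3 libraries for each condition; each y axis starts at 0 and has its own scale. *KLF2* steps up from means of 46.9 to 72.5 and 92.3 CPM, whereas the conditions lie closer together for the other genes.

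A further 3 members were past the threshold of an adjusted p of 0.05 in suspension, all higher. *KLF16*, which is known mainly as a repressor, measured 64.4, 67.2 and 63.3 CPM when attached, 74.1, 77.0 and 74.3 CPM when suspended with vehicle and 74.97, 71.3 and 75.8 CPM with AT-0174. Its suspended libraries all lay above its attached libraries, and those with AT-0174 overlapped those with vehicle. The log2 difference was 0.21 (SE 0.038) for suspension and −0.02 (SE 0.038) for AT-0174.

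*KLF11*, a SIN3-recruiting factor first found as a gene induced early by TGFβ, measured 17.2, 17.4 and 15.9 CPM when attached, and 20.1, 20.5 and 19.8 CPM when suspended with vehicle. With AT-0174 it measured 17.5, 20.5 and 19.2 CPM, so 1 library with AT-0174 lay near the attached level and the others near the suspended vehicle level. Its log2 difference was 0.26 (SE 0.062) for suspension and −0.08 (SE 0.061) for AT-0174. *KLF4*, an activator of epithelial differentiation genes and one of the pluripotency factors, measured 20.0, 19.9 and 18.4 CPM when attached, 22.3, 23.1 and 21.5 CPM when suspended with vehicle and 22.7, 21.2 and 20.6 CPM with AT-0174. The attached libraries of *KLF4* were lowest without overlap, and AT-0174 and vehicle overlapped. Its log2 difference was 0.20 (SE 0.055) for suspension and −0.05 (SE 0.053) for AT-0174.

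*KLF6* and *KLF3* lay highest with AT-0174 without reaching the threshold in either comparison. *KLF6*, an injury-induced factor with reported growth-suppressive roles, measured 61.4, 60.7 and 55.8 CPM when attached, 62.9, 63.5 and 61.9 CPM when suspended with vehicle, and 67.2, 73.5 and 70.4 CPM with AT-0174. The groups of *KLF6* did not overlap in either step, although attached replicate 1 and suspended vehicle replicate 3 were close. Its log2 difference was 0.08 (SE 0.045) for suspension and 0.16 (SE 0.045) for AT-0174. *KLF3*, a repressor that recruits CtBP, measured 68.6, 74.98 and 67.4 CPM when attached, 73.5, 74.0 and 74.1 CPM when suspended with vehicle and 81.3, 78.4 and 78.0 CPM with AT-0174. Attached and suspended vehicle libraries of *KLF3* overlapped, and its AT-0174 libraries lay above both. The log2 difference was 0.07 (SE 0.042) for suspension and 0.10 (SE 0.041) for AT-0174.

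*KLF5*, *KLF10* and *KLF13* overlapped between groups in both comparisons. *KLF5*, which promotes proliferation in basal epithelia, ranged from 11.0 to 12.4 CPM in attached cells, from 9.70 to 11.4 CPM in suspended vehicle cells and from 10.2 to 11.1 CPM with AT-0174. *KLF10*, the other early TGFβ-induced member, ranged from 15.9 to 18.3 CPM, from 17.9 to 18.1 CPM and from 16.0 to 18.5 CPM in the same order. *KLF13*, an activator of *CCL5* in T cells, ranged from 8.44 to 9.83 CPM, from 8.66 to 9.51 CPM and from 7.55 to 9.09 CPM. The log2 differences of these genes were −0.12 (SE 0.077), 0.09 (SE 0.067) and −0.03 (SE 0.087) for suspension, and 0.02 (SE 0.076), −0.07 (SE 0.066) and −0.09 (SE 0.087) for AT-0174. *KLF7*, a factor best known from neurons, had 0 to 2 counts per library, with 0 in 5 of the 9 libraries. It did not pass the filter on low counts and was not tested. At these depths, 0 observed counts leave room for up to 3 counts, which is 0.0625 to 0.0819 CPM.

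Of the 9 tested members, 4 were past the threshold in suspension, all higher, where 21.2% of all 15528 tested genes were called, 10.4% higher and 10.8% lower. The suspended vehicle libraries lay above the attached libraries without overlap in 5 members. Groups were separate in this way in 38.1% of all tested genes, with suspension higher in 19.4% and lower in 18.7%. With AT-0174, 1 of the 9 members was called, *KLF2*, where 0.779% of all tested genes were called, 0.522% higher and 0.258% lower. In 3 members, *KLF2*, *KLF3* and *KLF6*, the AT-0174 libraries lay above the vehicle libraries without overlap. Among all tested genes these groups were separate in 15.4%, higher with AT-0174 in 7.75% and lower in 7.66%. The median log2 difference of the members was 0.09 in suspension and −0.02 with AT-0174. Since these comparisons were known when the genes were chosen, nothing about the family is read from these counts. The plot of differences shows both comparisons side by side with the other family genes.

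**Figure D3:**
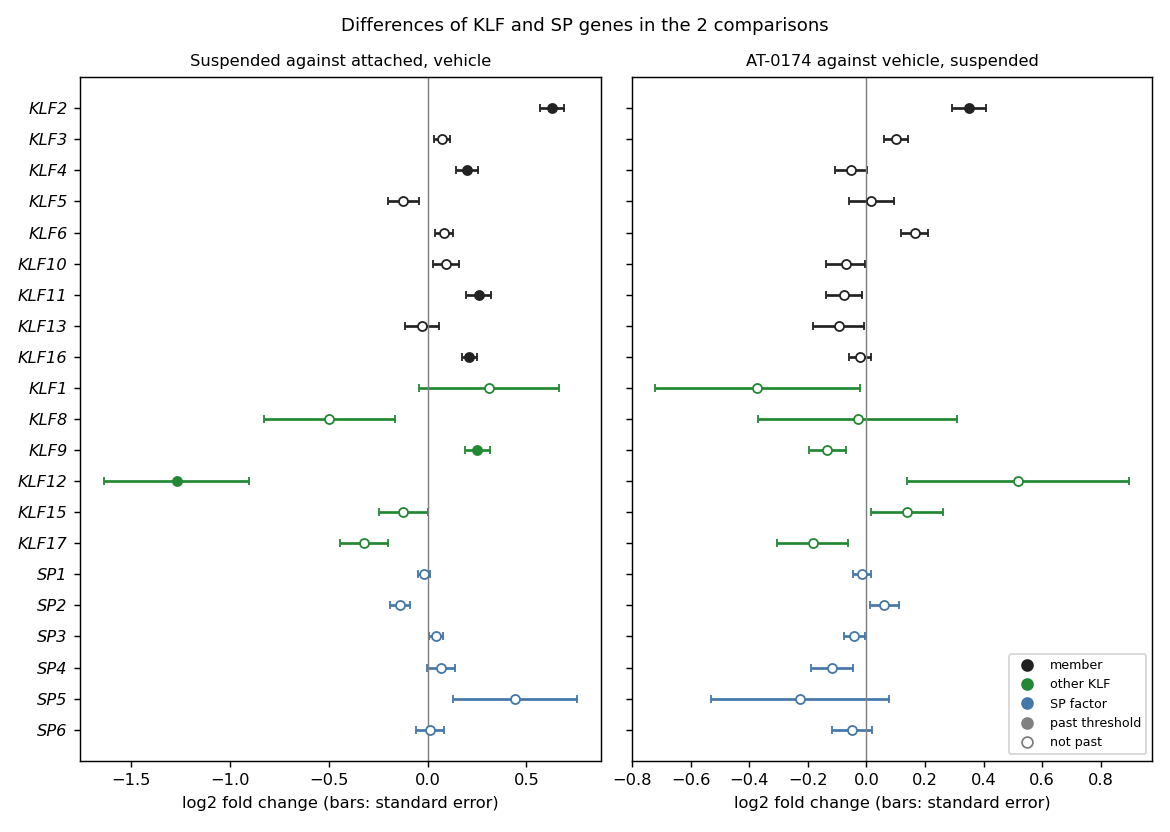
Log2 fold changes of the tested Kruppel-like factor and SP genes for suspended against attached cells (left) and for AT-0174 against vehicle in suspended cells (right); bars are standard errors and filled points passed an adjusted p of 0.05. *KLF2* lies at 0.63 and 0.35 and is the one member filled in both panels, and *KLF12*, at −1.27 on the left, has a standard error of 0.368.

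The calls differed in how far they depended on single libraries and on the handling of transcript length. *KLF2* passed in suspension in all 12 alternative fits, with log2 differences between 0.58 and 0.72. With AT-0174 its log2 difference stayed between 0.31 and 0.38, but it passed in 6 of 12 fits and was lost when counts were rebuilt from TPM (0.31), without suspended vehicle replicate 1 (0.34) or 3 (0.32), and without AT-0174 replicate 1 (0.35), 2 (0.34) or 3 (0.35). *KLF4* and *KLF11* each lost the call in suspension with counts rebuilt from TPM (0.19 and 0.28), without suspended vehicle replicate 2 (0.18 and 0.25) and without attached replicate 3 (0.16 and 0.22). *KLF16* lost it only with counts rebuilt from TPM, at a log2 difference of 0.24. *KLF3* passed in suspension without attached replicate 2 (0.12), and *KLF6* passed with AT-0174 when no filter on low counts was used.

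Levels were compared between genes per length, as TPM (transcript abundance scaled for length and depth) summed over the transcripts of each gene. In attached cells *KLF16* (44.7 to 52.7 TPM) and *KLF2* (43.95 to 52.4 TPM) stood together at the top with overlapping ranges. In suspended vehicle cells *KLF2* (74.2 to 84.2 TPM) stood above *KLF16* (57.5 to 64.2 TPM) without overlap. With AT-0174 the distance was wider, with 91.4 to 101 TPM for *KLF2* against 54.4 to 62.4 TPM for *KLF16*. These gene sums depend on the split between transcripts. KLF2-201 and KLF16-201, which held most reads of their genes, measured 33.4 ± 2.32 and 37.8 ± 1.11 TPM in suspended vehicle cells. There KLF2-201 lay below KLF16-201 without overlap, as it did in attached cells (20.2 ± 2.39 against 30.3 ± 1.07 TPM). With AT-0174 it lay above (41.8 ± 0.297 against 36.1 ± 1.80 TPM).

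*KLF2* contributed 26.8% ± 0.738 (SD, n = 3) of the summed TPM of the 10 members in attached cells, 34.4% ± 1.16 in suspended vehicle cells and 38.8% ± 0.812 with AT-0174. The ranges of this share did not overlap between conditions, the highest being 27.3% in attached cells and 35.6% in suspended vehicle cells and the lowest with AT-0174 being 38.2%. The size of the share includes the transcript KLF2-202, which was estimated from 289 to 784 reads per library. Below *KLF2* and *KLF16*, *KLF6* and *KLF3* took the next places in every condition, from 24.0 ± 4.58 and 18.5 ± 1.07 TPM in attached cells to 30.6 ± 3.06 and 21.98 ± 0.803 TPM with AT-0174. The ranges of *KLF6* and *KLF3* overlapped in attached cells only. *KLF4* followed at 10.7 ± 0.676, 13.1 ± 0.635 and 12.2 ± 0.812 TPM in the 3 conditions. *KLF5*, *KLF10* and *KLF11* lay between 5.53 and 11.6 TPM over all libraries. In both suspended conditions the neighbours in rank among these 3 genes overlapped. In suspended vehicle cells *KLF10* (9.33 to 9.74 TPM) still lay above *KLF11* (7.67 to 9.12 TPM), and *KLF5* overlapped both. *KLF13* (1.87 to 3.45 TPM) and *KLF7* (at most 0.0922 TPM) came last in every condition.

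**Figure D4:**
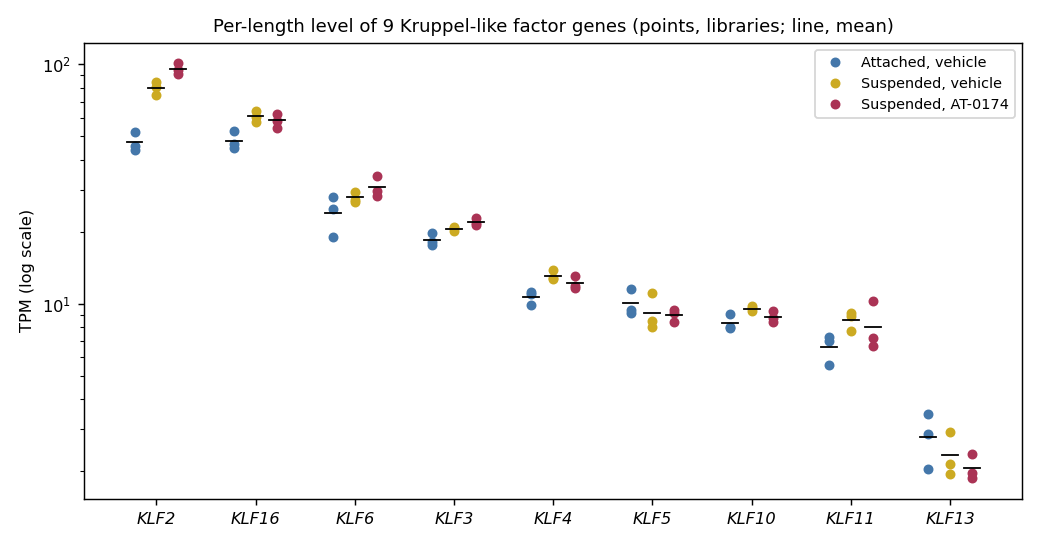
TPM of the 9 tested Kruppel-like factor genes in each library on a log scale, ordered by the mean of all 9 libraries, with the mean of each condition as a line. *KLF2* and *KLF16* overlap in attached cells (43.95 to 52.4 and 44.7 to 52.7 TPM), and *KLF2* lies above *KLF16* in both suspended conditions.

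The transcript estimates showed which RNAs these gene levels contain. *KLF4* was split between its coding transcript KLF4-201 and KLF4-205, which retains an intron and is not annotated as coding. KLF4-201 measured 5.07, 5.21 and 4.96 TPM in attached cells, 6.42, 6.54 and 6.98 TPM in suspended vehicle cells, and 7.35, 6.90 and 6.81 TPM with AT-0174. Its attached libraries were lowest without overlap, and its suspended conditions overlapped. KLF4-205 measured 5.68, 5.04 and 4.32 TPM, 5.23, 6.07 and 5.16 TPM, and 4.61, 4.31 and 4.26 TPM in the same order, so that its AT-0174 libraries lay below its suspended vehicle libraries. The share of *KLF4* TPM in the retained-intron transcript was 46.8% ± 3.72 in attached cells, 41.8% ± 1.80 in suspended vehicle cells and 36.1% ± 0.816 with AT-0174 (SD, n = 3 each), and that of KLF4-201 was 47.6% ± 2.30, 50.8% ± 3.91 and 57.7% ± 1.39. The gene-level *KLF4* value with AT-0174 therefore joins a coding transcript that overlapped vehicle and a retained-intron transcript that lay lower. These estimates rest on 379 to 673 reads per library for KLF4-201 and 278 to 399 reads for KLF4-205.

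**Figure D5:**
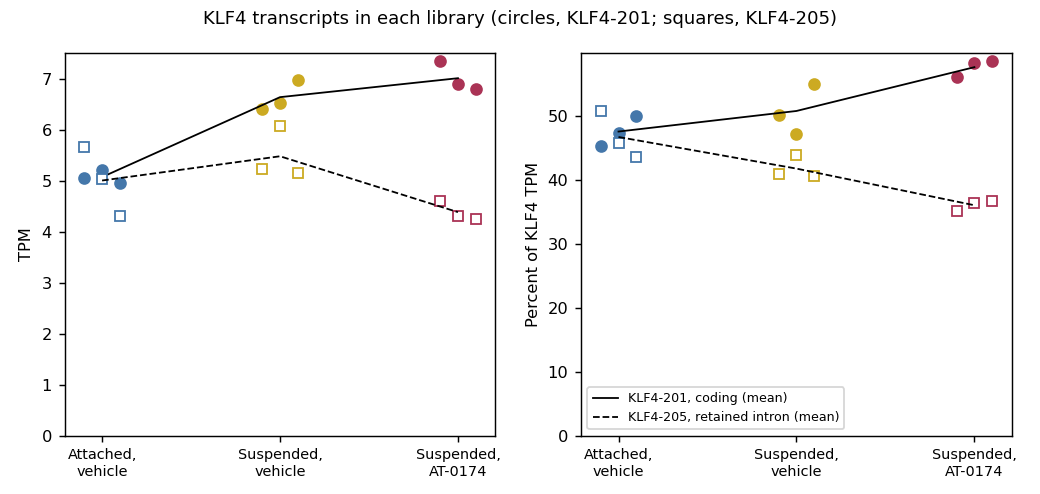
TPM (left) and percent of *KLF4* TPM (right) of the coding transcript KLF4-201 (circles, solid line through the means) and the retained-intron transcript KLF4-205 (squares, dashed line) in each library. The mean shares are 47.6% and 46.8% in attached cells and 57.7% and 36.1% with AT-0174.

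*KLF2* had a pair of coding transcripts, and their shares did not move with its level. KLF2-202 held 57.4% ± 0.984, 57.9% ± 4.33 and 56.2% ± 1.92 of *KLF2* TPM in the 3 conditions, and KLF2-201 held the rest. KLF2-202 is counted from few reads, 289 to 784 per library against 1402 to 3695 for KLF2-201, so its share depends on its short effective length. *KLF3* and *KLF10* came almost wholly from 1 coding transcript each, at 94.9% of their TPM on average. *KLF16* was split between KLF16-201 (62.5%) and KLF16-203 (37.4%), the latter from 149 to 292 reads per library. In *KLF5* a transcript with no defined coding sequence, KLF5-204, took 50.9% of the TPM on average, with an SD of up to 19.4 percentage points within a condition, so the TPM rank of *KLF5* rests largely on an unsteady estimate. KLF11-205 took 16.5% ± 6.16, 26.2% ± 4.44 and 13.4% ± 6.05 of *KLF11* TPM in the 3 conditions, and its counts were 71.1 to 274 reads per library.

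The Kruppel-like factors outside the 10 genes included 2 that were nearly undetected. Of 8 such genes, 6 were tested, 1 rose and 1 fell in suspension, and none was called with AT-0174. Over all tested genes, 10.4% were called higher and 10.8% lower in suspension, and 0.779% were called with AT-0174. *KLF9*, a steroid- and thyroid hormone–responsive member, was at 9.90 ± 0.339 CPM in attached and 11.8 ± 0.421 CPM in suspended vehicle libraries (mean ± SD of 3) and rose by 0.25 on the log2 scale (SE 0.065, edgeR adjusted p = 0.0167), and with AT-0174 it measured 10.7 ± 0.546 CPM. *KLF12*, a CtBP-dependent repressor, fell from 0.922 ± 0.221 to 0.383 ± 0.139 CPM (log2 fold change −1.27, SE 0.368, edgeR adjusted p = 0.0283), on 10 to 44 counts per library. The call of *KLF9* was lost without suspended vehicle replicate 3 (0.23), without attached replicate 2 (0.23) and with counts rebuilt from TPM (0.27). That of *KLF12* was lost in 5 of 12 fits: without attached replicate 1 (−1.26) or 3 (−1.10), without suspended vehicle replicate 2 (−0.99) or 3 (−1.37), and with counts rebuilt from TPM (−0.81). *KLF14* was at 0 counts in all libraries and *KLF18* had 0 to 4 counts. Of the 9 SP factors, which bind the same GC boxes, 6 were tested and none was called in either comparison by edgeR. The most abundant, *SP1* (170 ± 2.94, 168 ± 4.97 and 166 ± 0.845 CPM) and *SP3* (109 ± 4.10, 112 ± 1.35 and 109 ± 3.59 CPM), had overlapping libraries in both comparisons.

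Genes upstream of *KLF2* and *KLF4* were taken from a fixed list. In the ERK5–MEF2 arm 11 of 12 genes were tested, and 3 fell and none rose in suspension. There, 10.8% of all tested genes fell and 10.4% rose past the threshold. *HDAC7*, a deacetylase that holds MEF2 factors inactive, fell from 69.0 ± 5.84 to 47.4 ± 3.16 CPM (log2 fold change −0.54, SE 0.086, edgeR adjusted p = 0.00143). *MAP3K3*, a kinase at the head of the arm, had a log2 fold change of −0.28 (SE 0.055, edgeR adjusted p = 0.0047), and *MAPK7*, which encodes ERK5, one of −0.23 (SE 0.057, edgeR adjusted p = 0.0153). The *MAPK7* call was lost without suspended vehicle replicate 2 (−0.19), without attached replicate 3 (−0.18) and with counts rebuilt from TPM (−0.27). *MEF2A* (28.97 ± 0.820 against 29.5 ± 1.05 CPM) and *MEF2D* (62.8 ± 3.70 against 59.8 ± 1.88 CPM), whose products bind MEF2 sites, had overlapping libraries in suspension. None of the 11 genes was called with AT-0174, where 0.779% of all tested genes were called. The AT-0174 libraries lay above vehicle without overlap in 2 of the 11, *MEF2D* (62.3 ± 0.803 CPM) among them, and below in 1. Over all tested genes these shares were 7.75% and 7.66%. The part of this arm in the *KLF2* differences was not tested. Kinase activity and MEF2 binding were not measured.

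Among 14 other regulators, all tested, 2 rose and 1 fell in suspension, where 10.4% of all tested genes rose and 10.8% fell past the threshold. *TGFBR2*, a TGFβ receptor, fell by 0.86 on the log2 scale (SE 0.162, edgeR adjusted p = 0.00365), a call lost with counts rebuilt from TPM (−0.85). The forkhead factor gene *FOXO3* rose by 0.18 (SE 0.039, edgeR adjusted p = 0.00816) and *SMAD2*, which carries TGFβ signals to the nucleus, by 0.14 (SE 0.038, edgeR adjusted p = 0.0199). *SMAD2* was lost in 4 of 12 fits, those without attached replicate 2 (0.14) or 3 (0.11), without suspended vehicle replicate 3 (0.14) and with counts rebuilt from TPM (0.14). None of the 14 was called with AT-0174, where 0.779% of all tested genes were called.

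Of 10 cofactor genes, all tested, 2 rose and 1 fell in suspension, against 10.4% and 10.8% of all tested genes. *SIN3B*, a scaffold of the repressor complex that *KLF10* and *KLF11* proteins recruit, fell from 57.0 ± 2.03 to 45.3 ± 0.460 CPM (log2 fold change −0.33, SE 0.037, edgeR adjusted p = 1.5e-04). *SIN3A*, the other SIN3 gene of the list, was not called and its libraries overlapped (78.1 ± 1.38 against 78.5 ± 5.51 CPM). *CTBP1* and *CTBP2*, the corepressors used by *KLF3* and *KLF12* proteins, had log2 fold changes of 0.12 (SE 0.033, edgeR adjusted p = 0.0269) and 0.10 (SE 0.029, edgeR adjusted p = 0.0287). The *CTBP1* call was lost without attached replicate 1 (0.11) or 2 (0.11) and without suspended vehicle replicate 2 (0.11) or 3 (0.10). The *CTBP2* call was lost in the same fits, at 0.11, 0.11, 0.09 and 0.11, and also without attached replicate 3 (0.09) and with counts rebuilt from TPM (0.09). Among 8 ubiquitin ligases of the family, *WWP1*, which marks *KLF2* and *KLF5* proteins for degradation, rose by 0.23 (SE 0.037, edgeR adjusted p = 0.00157), and *FBXW7*, which also targets *KLF2* and *KLF5* proteins, fell by 0.21 (SE 0.036, edgeR adjusted p = 0.00252). The other 6 ligases were not called, and no cofactor or ligase was called with AT-0174, where 0.779% of all tested genes were. Protein levels were not measured.

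A list of 18 genes reported elsewhere as targets of the family held 14 tested genes, of which 5 rose and 1 fell in suspension. The shares over all tested genes were 10.4% higher and 10.8% lower in suspension, and 0.779% called with AT-0174. *THBD*, the thrombomodulin gene that KLF2 activates in endothelium, rose from 36.4 ± 0.595 to 47.6 ± 2.22 CPM (log2 fold change 0.39, SE 0.043, edgeR adjusted p = 1.3e-04). *CDKN1A*, the p21 gene that KLF4 and KLF6 activate, rose from 59.5 ± 2.16 to 76.6 ± 2.16 CPM (0.36, SE 0.039, edgeR adjusted p = 9.4e-05). *CCND1*, which encodes cyclin D1, rose by 0.17 on the log2 scale (SE 0.031, edgeR adjusted p = 0.003). *EDN1*, the endothelin gene that KLF2 represses in endothelium, fell from 8.16 ± 0.706 to 3.45 ± 0.345 CPM (−1.24, SE 0.109, edgeR adjusted p = 1.9e-05). The median of the list was 0.08, with 8 tested genes not called and 4 genes not tested. Whether the list followed the directions reported elsewhere was not tested. With AT-0174, *TXNIP*, whose product binds thioredoxin, fell from 191 ± 12.1 to 163 ± 1.40 CPM (−0.23, SE 0.042, edgeR adjusted p = 0.0235), and no other gene of the list was called. The *TXNIP* call was lost without suspended vehicle replicate 2 (−0.24) or 3 (−0.18), without AT-0174 replicate 1 (−0.22), 2 (−0.23) or 3 (−0.23) and with counts rebuilt from TPM (−0.21). In the AT-0174 comparison *THBD* was at 50.5 ± 1.19 CPM (0.09, SE 0.042) and *EDN1* at 4.01 ± 0.268 CPM (0.22, SE 0.112), and neither was called. The AT-0174 libraries of both genes still lay above the vehicle libraries without overlap. Of the 14 tested genes, 2 lay higher and 2 lower in this way, against 7.75% and 7.66% of all tested genes.

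Immediate-early genes were examined because *KLF2*, *KLF4*, *KLF6* and *KLF10* respond to many of the same stimuli, handling of cells included. Of 10 such genes 9 were tested, and 7 rose and none fell in suspension, where 10.4% of all tested genes rose and 10.8% fell. The median difference of the 9 genes was 0.57 on the log2 scale. *FOS* rose from 0.746 ± 0.178 to 34.6 ± 12.5 CPM (log2 fold change 5.54, SE 0.388, edgeR adjusted p = 2.9e-06), and *DUSP1*, a MAPK phosphatase gene, from 5.27 ± 0.0132 to 14.4 ± 3.30 CPM (1.45, SE 0.159, edgeR adjusted p = 1.2e-04). *EGR1* had a log2 fold change of 0.96 (SE 0.150, edgeR adjusted p = 0.00132) and *JUNB* one of 0.57 (SE 0.055, edgeR adjusted p = 4.2e-05). With AT-0174 none of the 9 was called: *FOS* was at 34.2 ± 8.31 CPM and *EGR1* at 76.6 ± 13.8 CPM against 77.0 ± 15.9 CPM with vehicle. The higher *KLF2* in suspension was thus accompanied by higher immediate-early genes, and their part in it was not tested. In the AT-0174 comparison, where 0.779% of all tested genes were called, 1 of the 9 genes, *JUN*, lay above vehicle without overlap. So did *KLF2* and 7.75% of all tested genes. *JUN* was at 49.0, 52.8 and 46.4 CPM against 44.5, 46.2 and 37.8 CPM with vehicle (log2 fold change 0.20, SE 0.072, not called). The other 8 genes overlapped. *FOS* varied from 20.9 to 45.4 CPM among the suspended vehicle libraries, where *KLF2* varied from 69.9 to 75.8 CPM. *KLF2* and *FOS* had the same order of libraries within each of the 3 conditions, with replicate 2 highest and replicate 3 lowest. With AT-0174 the *KLF2* values lay close together, at 91.3 to 93.0 CPM. Each condition has 3 libraries, and a relation between these genes was not tested.

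The genes whose log2 CPM followed a member most closely over the 9 libraries were sought among 12517 genes for *KLF2*, *KLF11* and *KLF16*. Among those nearest to *KLF2* were *DCAF4* (Pearson's r = 0.990) and the ribosomal protein gene *RPL32* (r = 0.990). *DCAF4* went from 42.6 to 47.3 and 49.7 CPM and *RPL32* from 310 to 347 and 366 CPM, so their steps were smaller than those of *KLF2* although their order over libraries was alike. Nearest to *KLF16* were *KIF3B* (r = 0.991), *ZBED4* (r = 0.985) and *C12orf66* (r = 0.985), and nearest to *KLF11* were *DRAIC* (r = 0.962), *NHLRC2* (r = 0.947) and *CHAC1* (r = 0.938). These correlations are a description over 9 libraries that share 3 conditions, and they were picked as the highest of many.

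The libraries held between 36649997 and 48019126 estimated counts, and replicates differed by more than counting noise in every pair. Luminal epithelial markers were abundant in all 3 conditions, with *KRT8*, a luminal keratin gene, at 889 ± 8.8, 884 ± 8.5 and 910 ± 39.3 CPM and *EPCAM*, an epithelial adhesion gene, at 309 ± 10.3, 321 ± 5.25 and 330 ± 8.2 CPM. The luminal factor genes *FOXA1* (589 ± 10.3 against 705 ± 7.16 CPM) and *SPDEF* (394 ± 6.39 against 435 ± 2.903 CPM) rose in suspension past the threshold, and their part in the *KLF2* result was not tested. Of the receptors that define the TNBC label, *ESR1* had 0 to 4 counts and *PGR* 5 to 18 counts per library, whereas *ERBB2* was abundant, with condition means of 1052, 1062 and 1051 CPM, so its RNA level goes against the label. The endothelial markers, of interest because *KLF2* is abundant in endothelium, summed to at most 0.340 CPM, and the immune markers to at most 2.31 CPM. The fibroblast list summed to 131 to 149 CPM in attached cells, 112 to 114 CPM in suspended vehicle cells and 108 to 114 CPM with AT-0174, nearly all of it *COL1A1*, and 1 of its 3 genes was at 0 counts in all libraries. In bulk RNA, more cells with *KLF2* and more *KLF2* RNA per cell cannot be told apart.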

How the data were processed

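Libraries were made from MDA-MB-453 RNA, 3 for each of 3 conditions named in the sample labels. The authors processed reads with Cutadapt 3.4 in Trim Galore 0.6.7, STAR 2.7.9a (GRCh38) and Salmon 1.10.1 and deposited estimated counts for 59452 genes, without normalization, and TPM values and estimated counts for 236920 transcripts per library. The gene counts equal the summed transcript counts. The library kit is named as Universal Plus mRNA in the study's methods and as SMARTER in the sample labels, so the strand setting is not given in the sources used here.

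Estimated counts were rounded, filtered with filterByExpr of edgeR 4.0.16 (15528 genes kept), scaled by TMM and fitted in a single quasi-likelihood model with condition as the only term. Genes were called at an adjusted p (Benjamini–Hochberg, over all tested genes) below 0.05. The SE is the absolute log2 difference over the root of the F statistic. Simulated data with known changes were used to test the fit. TPM values were summed by gene. Motifs were searched on both strands of RefSeq windows, and gene positions come from GENCODE on the same build.

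Named outside the 10 genes are, per list and comparison, up to 4 called genes by smallest p, or the 2 most abundant where none was called, and the 3 genes most correlated with each of the 3 members that differed most in suspension. *MEF2A*, *MEF2D*, *SIN3A*, *JUN*, *KLF14*, *KLF18* and the markers named are outside this rule and were chosen after their values were seen. The members and lists were chosen with earlier results of these data known. Alternatives were limma-voom (limma 3.58.1), DESeq2 1.42.0, its size factors in edgeR, no filter, counts rebuilt from TPM, a replicate block, each library left out, and a per-length level from counts. Floors for a count of 0 cover counting error only. P-values measure the spread between cultures of 1 line. Values of 1 correlated gene and 1 luminal marker, with the sum that needs it, are not reported here.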

Additional observations from a re-analysis of the deposited data

How the results depend on the processing

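In suspension, 3297 genes were called, and with counts rebuilt from TPM 1396, of which 1 was a Kruppel-like factor, against 4 in the reported fit. Leaving out 1 library gave 1935 to 2693 genes and 2 to 5 of these factors, the fewest without attached replicate 3 (1935 genes, 2 factors) and without suspended vehicle replicate 2 (1951 genes, 2 factors). With AT-0174, 121 genes were called, 217 with DESeq2, 499 with no filter on low counts (2 factors, *KLF2* and *KLF6*) and 31 with counts rebuilt from TPM (0 factors), and leaving out 1 library gave 63 to 86 genes and 0 to 1 factors. Why the counts moved was not tested, except that leaving out a library leaves fewer samples. The replicate numbers were not taken as pairs, since same-numbered libraries deviated together in neither comparison (correlations −0.0723 to 0.0629 and −0.105 to 0.022) and correlated best with their own number in 1 and 0 of 3 cases. With the replicate block 3250 and 146 genes were called, with 4 and 1 of the factors.

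The log2 difference of a member moved by less than the SD between its libraries in 214 of the values recomputed and by more in 2, *KLF13* in suspension (−0.36) and *KLF3* with AT-0174 (0.14), both with counts rebuilt from TPM. Uncalled members near 0 changed sign between fits, namely *KLF13* in suspension (−0.36 to 0.029) and *KLF5* (−0.047 to 0.069) and *KLF16* (−0.044 to 0.0046) with AT-0174. Likewise, the sign of *SP1* turned in suspension without suspended vehicle replicate 3 (−0.032 to 0.0086 over the fits that left out 1 library) and with AT-0174 without suspended vehicle replicate 1 (−0.040 to 0.00018), and that of *SP3* turned with AT-0174 on counts rebuilt from TPM (0.042). TPM levels set from counts and effective lengths differed by less than 1 SD in 29 of 30 values, the exception being *KLF7*. These lengths were weighted by the same transcript estimates, so this comparison cannot test the split between transcripts. The medians of all tested genes stayed within 0.005 of 0 on the log2 scale in every fit.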
